A study of Mus musculus with 13 samples.

Results

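The integrated stress response is the set of signals by which a cell slows protein synthesis and rewrites its gene expression when it is short of amino acids, overloaded with unfolded protein, infected or low in heme. Its 32 genes examined here were chosen by name as eIF2alpha kinases, ATF4-family transcription factors, their targets, and enzymes of serine and one-carbon metabolism. They occupy 33 of the 55421 rows of the deposited gene table, because Ddit3 is listed there under a pair of identifiers.

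Kinases that sense different stresses phosphorylate the translation factor eIF2alpha, which lowers general protein synthesis but raises translation of a few messages, ATF4 among them. ATF4 then acts with C/EBP partners at C/EBP-ATF response elements to raise genes for amino acid synthesis and import, for redox defence and for feedback that restores translation. Beta cells make large amounts of proinsulin, and loss of the eIF2alpha kinase PERK is known to damage them.

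Islets came from C57BL/6 mice aged 10 to 20 weeks and were kept overnight in medium with 5.5 mM glucose before they were dispersed and sorted. The knockout (KO) group had the genotype Txnrd1.fl/fl and the control group Txnrd1.+/+; both groups carried Ins1.Cre/+, a Cre recombinase driven from the insulin 1 locus, and Rosa26.mTmG/mTmG, a reporter in which cells that have had Cre turn from red to green fluorescence. Green cells formed the beta fraction and red cells the non-beta fraction, which gave 3 KO beta, 4 control beta, 3 KO non-beta and 3 control non-beta libraries of total RNA. Txnrd1 encodes the cytosolic thioredoxin reductase, a selenoprotein that keeps thioredoxin reduced. The labels do not say that replicates came from separate mice, so the p-values below measure the spread between these libraries, which may be in part technical. In RNA from sorted pools, fewer cells of a type and less RNA per cell cannot be told apart.

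Libraries held between 28687466 and 36775079 counts. Ins2, the main mouse insulin gene, took 13.6% to 21.2% of counts in KO beta libraries, against 20.2% to 22.6% in control beta libraries. Gcg, the glucagon gene of alpha cells, took 18.8% to 19.9% in KO non-beta and 15.7% to 19.5% in control non-beta libraries. KO beta replicate 3 had 0.390% Gcg, against 0.0295% to 0.0682% in the control beta libraries, and KO non-beta replicate 3 had 2.46% Ins2. Txnrd1 itself averaged 571.1 ± 16.5 CPM (counts scaled to a common library total) in KO-labelled beta libraries (SD, n = 3) and 295.5 ± 26.7 CPM in control beta libraries (SD, n = 4), a log2 fold change of 1.00 (SE 0.08; edgeR adjusted p = 2.22e-05). The table counts the whole gene, in which the exons removed by Cre are not shown apart, so this level does not check the deletion, and it was higher where the label says knockout. For that reason the libraries are called KO-labelled below, and every direction given rests on the label.

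In KO-labelled beta cells 19 of the 32 genes were higher than in control beta cells and 1 was lower, by edgeR's quasi-likelihood test with adjustment over 17525 genes. Over all genes tested, 10.1% were called higher and 9.97% lower, or 20.1% in either direction. The median log2 fold change was 0.46 over the 32 genes and 0.01 over all genes. None of the 4 stress sensors was called higher and 1 was called lower. By role, the median log2 fold change was 1.20 over 4 secreted and receptor genes, 0.94 over 5 genes of feedback and translation and 0.79 over 7 transcription factors. It was 0.37 over 6 serine and one-carbon enzymes, 0.43 over 4 other enzymes, 0.30 over 2 redox and transsulfuration genes and -0.13 over the 4 kinases. In 20 of the 32 genes every KO-labelled beta library lay above every control beta library, where 12.7% of all genes did so, and in 1 gene every library lay below, where 18.2% of all genes did. Mean levels of the members in KO-labelled beta cells ran between 0.713 and 1007.4 CPM, and Fgf21, Stc2 and Cth were under 3 CPM in all 4 groups.

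**Figure D1:**
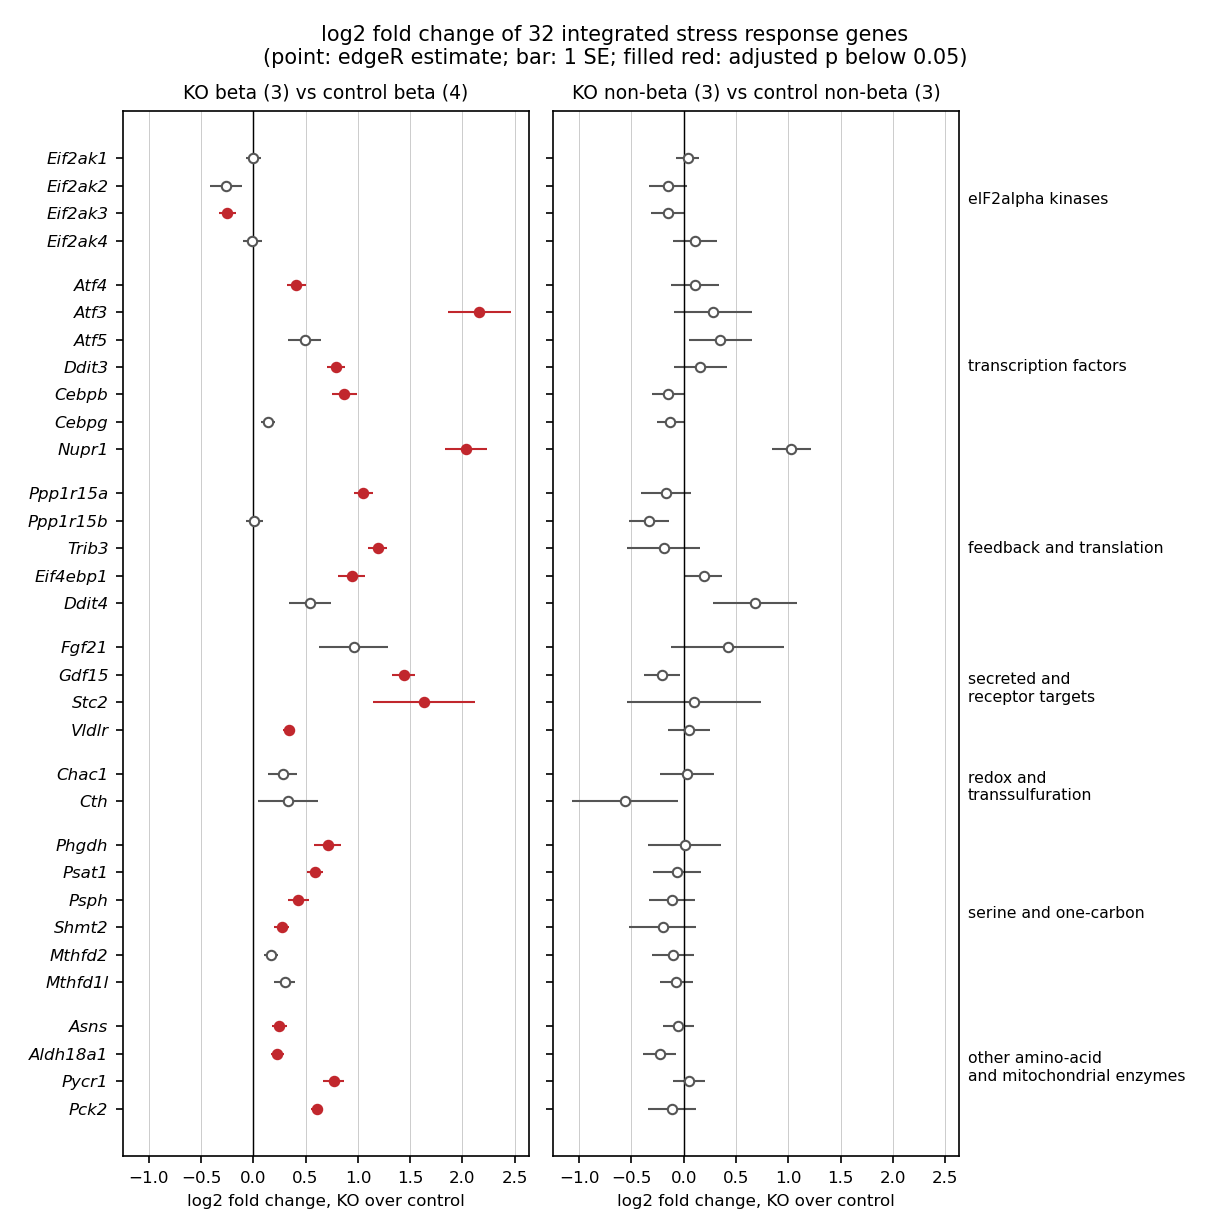
log2 fold change of KO-labelled over control libraries for the 32 genes, grouped by role, in beta cells (left, 3 against 4 libraries) and in non-beta cells (right, 3 against 3); points are edgeR estimates, bars 1 SE, and filled red points have an adjusted p below 0.05. In beta cells 20 points are filled, 19 of them right of 0, and in non-beta cells none is, with Nupr1 at 1.03 the farthest from 0.

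ATF4 is known to reach many of these genes through a short DNA element near their start sites. RefSeq promoter windows of 300 bases on GRCm38.p6, from 250 before to 50 after each start site, were matched to 29 of the 32 genes; Ppp1r15b, Eif4ebp1 and Cth had no entry. The C/EBP-ATF response element was searched as TGATGNAA on both strands, and it was found in 9 of 29 members (31%), against 1219 of 27025 genes with such a window (4.51%). The 9 genes were Asns, Atf3, Chac1, Fgf21, Nupr1, Pck2, Pycr1, Trib3 and Vldlr. Of the 18 members with a window that were called higher in KO-labelled beta cells 7 held the letters, and of the other 11 members 2 did, Chac1 and Fgf21. These are matches of letters, not measured sites of binding, and where there is no match only these letters are missing from this window. Shown here are windows around the element in 3 genes that rose and in both that did not pass the test, 5′ to 3′ on the strand of the gene, with the element in capitals (TTGCATCA and TTACATCA are the element read on the opposite strand).
Atf3: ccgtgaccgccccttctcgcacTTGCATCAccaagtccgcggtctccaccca
Pycr1: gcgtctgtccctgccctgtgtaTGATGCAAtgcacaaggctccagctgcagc
Pck2: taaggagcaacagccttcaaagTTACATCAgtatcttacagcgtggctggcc
Chac1: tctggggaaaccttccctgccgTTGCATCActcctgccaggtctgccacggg
Fgf21: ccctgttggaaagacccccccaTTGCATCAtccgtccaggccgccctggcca
On GRCm38.p6 these stretches lie at chr1:191183414-191183465 (minus strand) for Atf3, chr11:120643822-120643873 (minus) for Pycr1, chr14:55540141-55540192 (plus) for Pck2, chr2:119351027-119351078 (plus) for Chac1 and chr7:45615600-45615651 (minus) for Fgf21. The first base of the element lay 110 bases before the start site in Atf3 and in Nupr1, 103 bases before it in both Pycr1 and Pck2, 139 in Fgf21 and 193 in Chac1. Chac1 and Fgf21 thus hold the same 8 letters as Atf3, and the genes' changes in KO-labelled beta cells differed widely, with log2 fold changes of 0.28, 0.96 and 2.16.

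**Figure D2:**
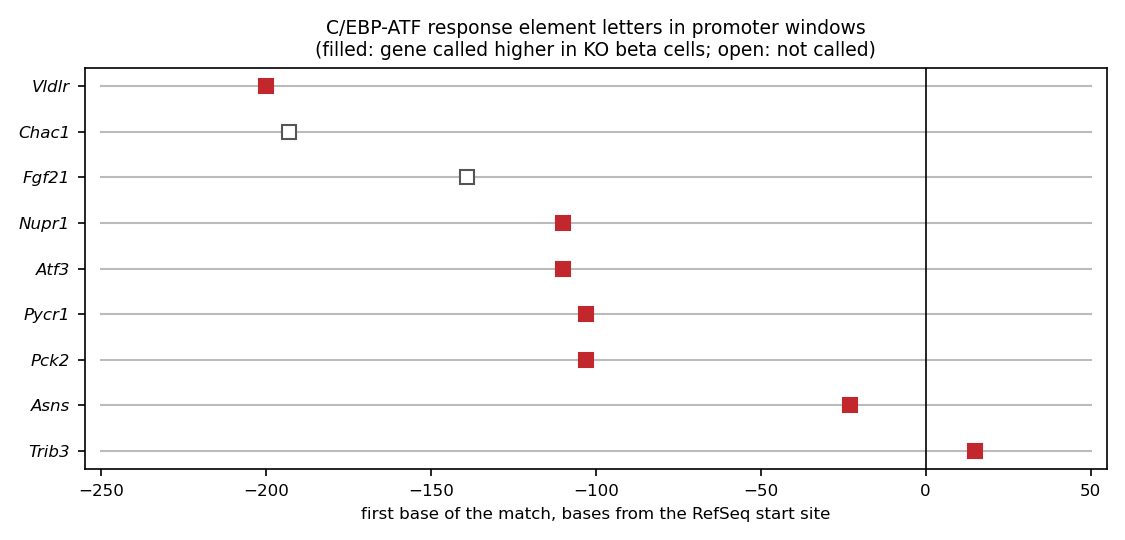
Position of the letters TGATGNAA, on either strand, within the promoter windows of the 9 members that hold them, in bases from the RefSeq start site (0); filled squares are genes called higher in KO-labelled beta cells and open squares genes not called. The matches of Nupr1, Atf3, Pycr1 and Pck2 fall between 110 and 103 bases before the start site.

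The antioxidant response element, through which NRF2 acts, was searched as TGACNNNGC on both strands and was found in 6 of 29 members (20.7%), against 14% of all genes with a window. These were Asns, Cebpb, Phgdh, Ppp1r15a, Psph and Stc2. They are 6 of the 18 members with a window that were called higher in KO-labelled beta cells, and 0 of the other 11 members held the letters. As above, these are matches of letters, and their part in the changes was not tested. The longer endoplasmic reticulum stress element was found in 0 of 29 members, against 37 of 27025 genes (0.137%). An element this rare would hardly be met among 29 genes, so that count says nothing about the members.

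At the level of RNA, none of the 4 sensors was called higher in KO-labelled beta cells. Kinase activity and phosphorylation of eIF2alpha were not measured. Eif2ak1 encodes HRI, the kinase activated when heme is scarce and by mitochondrial stress, and it had 80.5, 85.1 and 92.3 CPM in KO-labelled beta libraries, against 83.9, 87.0, 87.2 and 95.8 CPM in control beta libraries. Eif2ak4 encodes GCN2, which senses uncharged tRNA, and it had 18.5, 21.9 and 22.9 CPM in KO-labelled beta libraries, against 21.2, 21.4, 22.2 and 22.8 CPM in control beta libraries. Both sets overlapped, with log2 fold changes of 0.00 (SE 0.07, edgeR adjusted p = 0.98) and -0.01 (adjusted p = 0.944). Eif2ak2, the gene of the double-stranded-RNA sensor PKR, had 8.37, 9.19 and 10.2 CPM in KO-labelled beta libraries, against 8.74, 11.3, 11.5 and 14.3 CPM in control beta libraries, again with overlap (adjusted p = 0.262). Eif2ak3 encodes PERK, the kinase of the endoplasmic reticulum, and had 69.7, 73.3 and 78.8 CPM in KO-labelled beta libraries, against 82.1, 87.8, 92.8 and 101.3 CPM in control beta libraries. Every KO-labelled library lay below every control library for Eif2ak3, and it fell by 0.25 on the log2 scale (SE 0.08, edgeR adjusted p = 0.044). That call was lost in 7 of 14 alternative fits, with an adjusted p of up to 0.208.

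Among the transcription factors, 5 of 7 rose. Atf4, the central factor of the response, whose activity is set mainly by translation, had 396.9, 440.8 and 459.3 CPM in KO-labelled beta libraries, against 315.5, 317.4, 347.2 and 363.8 CPM in control beta libraries. The groups were apart, and the log2 fold change was 0.41 (SE 0.09, edgeR adjusted p = 0.0091). Ddit3 encodes CHOP, a partner of C/EBP factors that is linked to cell death under lasting stress, and had 421.8, 498.6 and 514.8 CPM in KO-labelled beta libraries, against 259.5, 294.5, 294.6 and 296.6 CPM in control beta libraries. All KO-labelled libraries stood above all controls, by 0.79 on the log2 scale (SE 0.09, adjusted p = 0.000316). A second Ddit3 row of 105 exon bases, 100% of which also belong to the main gene, moved alike (log2 fold change 0.74, adjusted p = 0.000342) and is no independent measurement.

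Atf3, an early-induced factor of the ATF family, had 12.2, 20.6 and 23.9 CPM in KO-labelled beta libraries, against 2.65, 3.05, 4.54 and 7.11 CPM in control beta libraries. It had the largest change of the 32 genes, 2.16 on the log2 scale (SE 0.30, edgeR adjusted p = 0.000885), a 4.48-fold rise with no overlap. Nupr1, a small stress-induced chromatin protein, had 915.8, 973.9 and 1132.5 CPM in KO-labelled beta libraries, against 181.2, 206.9, 275.9 and 353.6 CPM in control beta libraries. Its lowest KO-labelled library was far above its highest control library, with a log2 fold change of 2.03 (SE 0.20, adjusted p = 0.000101), and per kilobase of exon it was the most abundant of the 32 messages in KO-labelled beta cells, at 400.7 CPM per kb. Cebpb, the C/EBP beta factor, had 212.1, 255.2 and 277.6 CPM in KO-labelled beta libraries, against 126.9, 130.4, 143.8 and 161.0 CPM in control beta libraries, and rose by 0.87 (SE 0.12, adjusted p = 0.000703). Of its exon bases 20.7% are shared with Tmem189 on the opposite strand; whether counting used strand is not given in the sources used here, so part of its count could belong to that neighbour. Shares of 8.05% to 11.6% with genes on the opposite strand were found for Eif2ak1, Eif2ak3, Ppp1r15b and Psph. Ddit3 shares 10.9% of its exon bases, with its second row on the same strand and with Gm4189 and Mars on the opposite strand.

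Atf5 and Cebpg did not pass the test. Atf5, a relative of Atf4 tied to mitochondrial stress, averaged 43.0 ± 10.2 CPM in KO-labelled beta libraries (SD, n = 3) and 31.6 ± 3.26 CPM in control beta libraries (SD, n = 4), with an edgeR adjusted p of 0.0517. KO beta replicate 3 had 31.3 CPM, inside the control range, and without it the log2 fold change was 0.68 with an adjusted p of 0.00135. Cebpg, the usual dimer partner of ATF4, lay narrowly above control in every KO-labelled library, by 0.14 on the log2 scale (adjusted p = 0.183).

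Of 5 genes that feed back on the response or on translation, 3 rose. Ppp1r15a encodes GADD34, the induced subunit that brings a phosphatase to eIF2alpha, and had 221.0, 230.8 and 254.4 CPM in KO-labelled beta libraries, against 102.3, 113.8, 124.2 and 129.7 CPM in control beta libraries. No library overlapped, and the log2 fold change was 1.05 (SE 0.09, edgeR adjusted p = 4.45e-05). Its constitutive counterpart Ppp1r15b, which encodes CReP, had 43.3, 45.3 and 50.6 CPM in KO-labelled beta libraries, against 43.5, 44.6, 49.5 and 52.8 CPM in control beta libraries, with overlap and a log2 fold change of 0.01 (adjusted p = 0.96). Trib3 encodes a pseudokinase that binds ATF4 and AKT, and had 413.4, 444.3 and 452.5 CPM in KO-labelled beta libraries, against 166.8, 200.2, 211.0 and 214.0 CPM in control beta libraries. It rose by 1.19 on the log2 scale (SE 0.09, adjusted p = 2.37e-05), the smallest adjusted p of the 32.

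Eif4ebp1 encodes 4E-BP1, a repressor of cap-dependent translation, and had 125.9, 141.6 and 186.4 CPM in KO-labelled beta libraries, against 76.1, 79.3, 83.9 and 87.2 CPM in control beta libraries. The groups were apart, and it rose by 0.94 on the log2 scale (SE 0.13, edgeR adjusted p = 0.000843). Ddit4, which encodes the mTORC1 inhibitor REDD1, averaged 27.8 ± 6.92 CPM in KO-labelled beta libraries (SD, n = 3) and 19.7 ± 5.44 CPM in control beta libraries (SD, n = 4); the groups overlapped and the adjusted p was 0.0866.

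**Figure D3:**
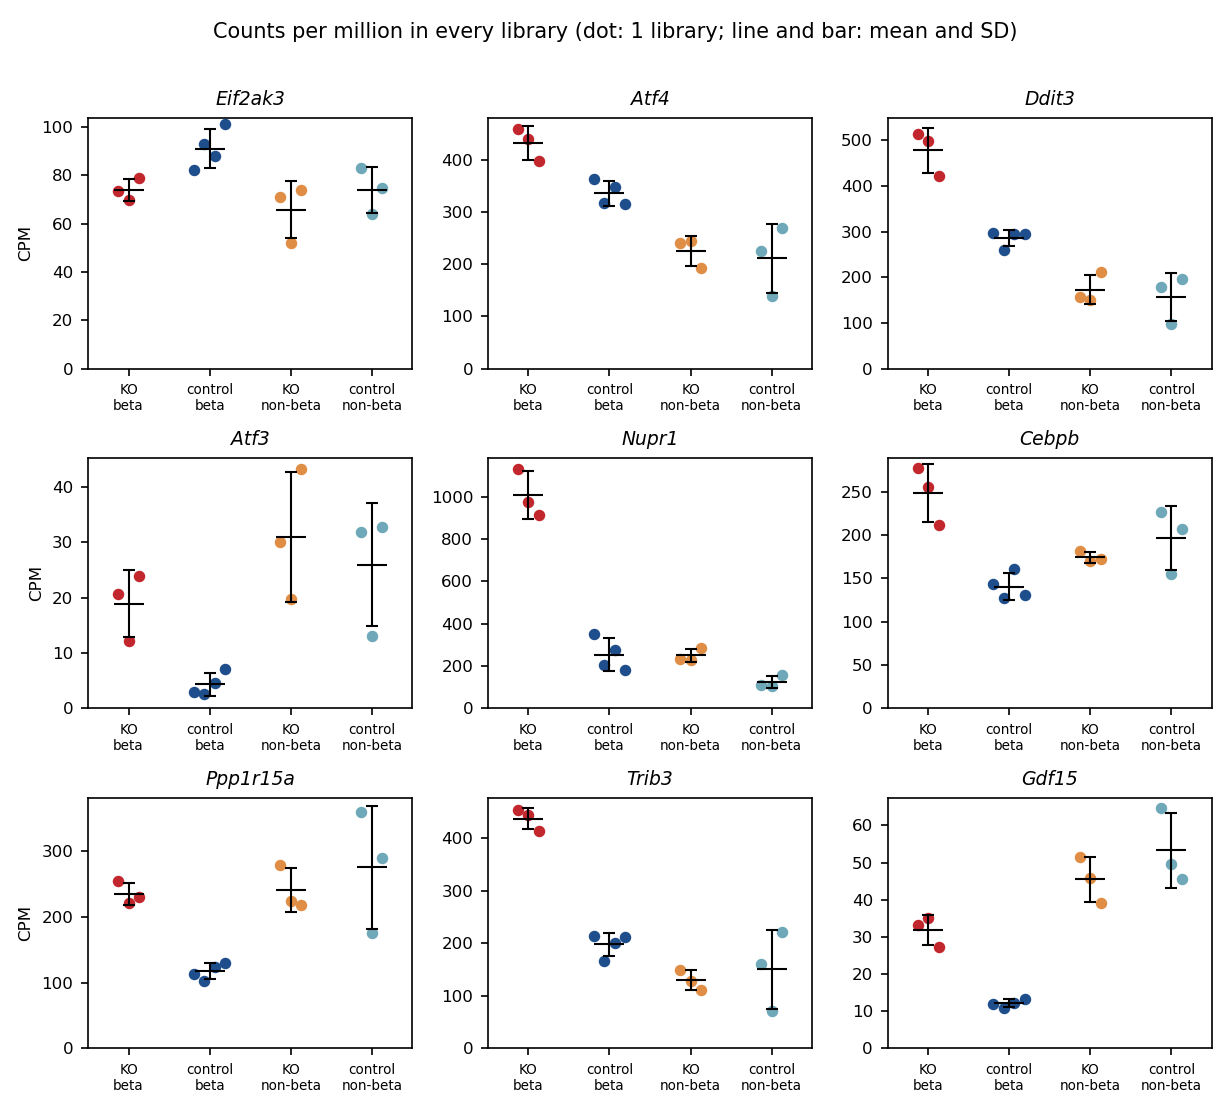
CPM of 9 of the genes in every library, each panel with its own axis from 0; dots are libraries, horizontal lines group means and bars SDs, in the order KO beta (n = 3), control beta (n = 4), KO non-beta (n = 3) and control non-beta (n = 3), KO standing for the label. Nupr1 lies between 915.8 and 1132.5 CPM in KO beta libraries and at or under 353.6 CPM in all others; Gdf15, Atf3 and Ppp1r15a are lowest in control beta libraries.

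Among secreted products and receptors, 3 of 4 were called. Gdf15, a stress-induced hormone that acts on the hindbrain to lower food intake, had 27.2, 33.1 and 35.0 CPM in KO-labelled beta libraries, against 10.9, 12.0, 12.2 and 13.4 CPM in control beta libraries. The groups were apart, and it rose by 1.44 on the log2 scale (SE 0.11, edgeR adjusted p = 2.39e-05). Stc2, which encodes the secreted glycoprotein stanniocalcin 2, was close to the detection limit, with 0.326, 0.807 and 1.01 CPM in KO-labelled beta libraries, against 0.0982, 0.197, 0.218 and 0.426 CPM in control beta libraries. One KO-labelled library lay inside the control range; the log2 fold change was 1.63 (SE 0.49, adjusted p = 0.038), and the call was lost in 6 of 13 alternative fits, with an adjusted p of 0.114 when KO beta replicate 3 was left out. Vldlr, the very-low-density lipoprotein receptor and an ATF4 target in liver, had 99.7, 101.1 and 108.1 CPM in KO-labelled beta libraries, against 80.9, 83.2, 85.6 and 86.1 CPM in control beta libraries, a small and separate rise of 0.34 (SE 0.06, adjusted p = 0.00398). Fgf21, a stress hormone made mostly by liver, averaged 0.866 ± 0.102 CPM in KO-labelled beta libraries (SD, n = 3) and 0.462 ± 0.176 CPM in control beta libraries (SD, n = 4). Its lowest KO-labelled library, at 0.783 CPM, was above its highest control library, at 0.690 CPM, and its adjusted p was 0.0651.

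The redox members gave no call. Chac1 encodes an enzyme that breaks down glutathione, and averaged 109.2 ± 15.1 CPM in KO-labelled beta libraries (SD, n = 3) and 93.1 ± 13.8 CPM in control beta libraries (SD, n = 4), with overlap (edgeR adjusted p = 0.173). Cth, which makes cysteine from cystathionine, averaged 0.845 ± 0.161 CPM in KO-labelled beta libraries (SD, n = 3) and 0.691 ± 0.123 CPM in control beta libraries (SD, n = 4), also with overlap (adjusted p = 0.447).

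All 3 enzymes of serine synthesis from glycolysis rose. Phgdh, the first of them, had 98.6, 112.6 and 126.8 CPM in KO-labelled beta libraries, against 59.8, 66.0, 75.4 and 83.9 CPM in control beta libraries. Psat1, the aminotransferase that follows, had 70.4, 74.9 and 78.9 CPM in KO-labelled beta libraries, against 48.6, 49.3, 50.7 and 55.8 CPM in control beta libraries. Psph, the phosphatase that releases serine, had 67.6, 72.7 and 77.8 CPM in KO-labelled beta libraries, against 50.5, 53.9, 56.5 and 61.9 CPM in control beta libraries. None of the 3 overlapped between groups, and the log2 fold changes were 0.71 (SE 0.13, edgeR adjusted p = 0.00343), 0.59 (SE 0.08, adjusted p = 0.00058) and 0.43 (SE 0.10, adjusted p = 0.0104). The partner of Psph is Cct6a on the opposite strand, over 10.4% of the exon bases of Psph. Of the 3 mitochondrial one-carbon enzymes among the 32 genes, 1 was called. Shmt2, which moves serine's carbon to folate, had 88.2, 92.9 and 96.4 CPM in KO-labelled beta libraries, against 76.1, 76.3, 80.9 and 83.8 CPM in control beta libraries, and rose by 0.27 (SE 0.07, adjusted p = 0.0186); without KO beta replicate 2 the adjusted p was 0.067. Mthfd2 and Mthfd1l, the next steps of that pathway, had log2 fold changes of 0.17 (adjusted p = 0.129) and 0.30 (adjusted p = 0.0558) and were not called.

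The other 4 enzymes were all called higher. Pycr1, which completes proline synthesis in mitochondria, had 146.2, 153.8 and 167.2 CPM in KO-labelled beta libraries, against 86.7, 87.9, 95.4 and 108.3 CPM in control beta libraries. Pck2, the mitochondrial form of phosphoenolpyruvate carboxykinase, was the most even, with 178.4, 180.7 and 182.4 CPM in KO-labelled beta libraries, against 119.0, 121.0, 122.4 and 127.0 CPM in control beta libraries. Both were apart between groups, with rises of 0.77 (SE 0.10, edgeR adjusted p = 0.000478) and 0.61 (SE 0.06, adjusted p = 0.000164). Asns, the asparagine synthetase that is a classical ATF4 target, had 446.4, 463.6 and 485.8 CPM in KO-labelled beta libraries, against 380.2, 405.9, 407.6 and 420.1 CPM in control beta libraries. Aldh18a1, which starts proline synthesis, had 236.9, 240.6 and 260.2 CPM in KO-labelled beta libraries, against 206.8, 215.4, 221.6 and 222.0 CPM in control beta libraries. Their groups were also apart, but the rises were small, 0.25 (SE 0.07, adjusted p = 0.0265) and 0.23 (SE 0.06, adjusted p = 0.0243), and the calls were lost in 5 and 8 of 14 alternative fits, most of them fits without 1 library.

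How many of these calls were made depended on which libraries set the spread. When all 13 libraries shared 1 estimate of it, 10 of the 32 genes were called higher and 0 lower. That fit called 1673 of 19942 genes in either direction, against 3525 of 17525 in the main fit. The same 10 genes were called in all 14 alternative fits, and they were Atf3, Ddit3, Cebpb, Nupr1, Ppp1r15a, Trib3, Eif4ebp1, Gdf15, Pycr1 and Pck2. On GRCm38 the 4 of them with the largest changes lie at chr1:191170296-191218039 (Atf3), chr7:126623249-126630861 (Nupr1), chr8:70629393-70632456 (Gdf15) and chr2:152337422-152344032 (Trib3), all on the minus strand. Without KO beta replicate 3, which held more RNA of other islet cells, 18 of the 32 genes were higher and 1 lower. That fit called 4117 of 17819 genes in either direction. Summed over 6 alpha-cell markers the level was 590.4 to 3764.2 CPM in KO-labelled beta libraries and 449.3 to 833.7 CPM in control beta libraries; its part in the result was not tested.

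In the authors' deposited table of the same comparison, 29 of the 32 genes are listed, without Fgf21, Stc2 and Cth. Of these, 21 are higher and 1, Eif2ak3, is lower in the authors' deposited table at an FDR below 0.05, where 25.8% of the 11810 genes listed pass. The 3 that pass in the authors' deposited table but not in the fit here are Atf5 (FDR 0.00948), Ddit4 (FDR 0.0259) and Mthfd1l (FDR 0.0327).

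In non-beta cells, the fraction sorted as red, 0 of the 32 genes were called between KO-labelled and control libraries by edgeR, as were 0 of 18908 genes (0%). At an unadjusted p below 0.05 there were 821 genes, of which 1 was a member. DESeq2 called 29 genes and 1 member. A fit blocked by replicate number called 12 genes and 2 members, Nupr1 and Ddit4. The median log2 fold change was -0.05 over the members and -0.00 over all genes. The member at that unadjusted p was Nupr1. It had 227.3, 235.4 and 287.6 CPM in KO-labelled non-beta libraries, against 103.8, 110.1 and 158.8 CPM in control non-beta libraries. It was the single member without overlap, where 3.9% of all genes lay wholly above and 5.76% wholly below, with a log2 fold change of 1.03 (SE 0.19, edgeR adjusted p = 0.823). DESeq2 gave an adjusted p of 0.00165, and the authors' deposited table gives an FDR of 0.00514 for a log2 fold change of 1.03. KO non-beta replicate 3 had the highest Nupr1 of its group and 2.46% Ins2, against 0.159% and 0.195% Ins2 in the other KO-labelled non-beta libraries and 0.280% to 0.689% in the control non-beta libraries. The part of beta-cell RNA in the Nupr1 difference was not tested.

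Most members were low in the same non-beta library of each group. In control non-beta replicate 3 the level was the lowest of its group for 29 of the 31 members that averaged at least 1 CPM, with a median of -0.64 on the log2 scale from the other libraries' mean; of all genes 38.4% were lowest and 35% highest in that library. KO non-beta replicate 3 was the lowest of its group for 23 of 31 members and the highest for 6, with a median deviation of -0.24; of all genes 38.9% were lowest and 40.7% highest in that library. Trib3 shows the size of this spread, with 111.8, 128.9 and 149.2 CPM in KO-labelled non-beta libraries, against 70.6, 160.2 and 220.4 CPM in control non-beta libraries. Ddit3 had 150.9, 157.7 and 210.8 CPM in KO-labelled non-beta libraries, against 97.9, 177.8 and 195.5 CPM in control non-beta libraries, and Atf4 had 192.6, 240.5 and 243.8 CPM in KO-labelled non-beta libraries, against 139.3, 225.6 and 269.3 CPM in control non-beta libraries. In each of the 3 genes the lowest control value was that of replicate 3. With that library left out no member was called in non-beta cells either, and the median log2 fold change of the members was -0.24.

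**Figure D4:**
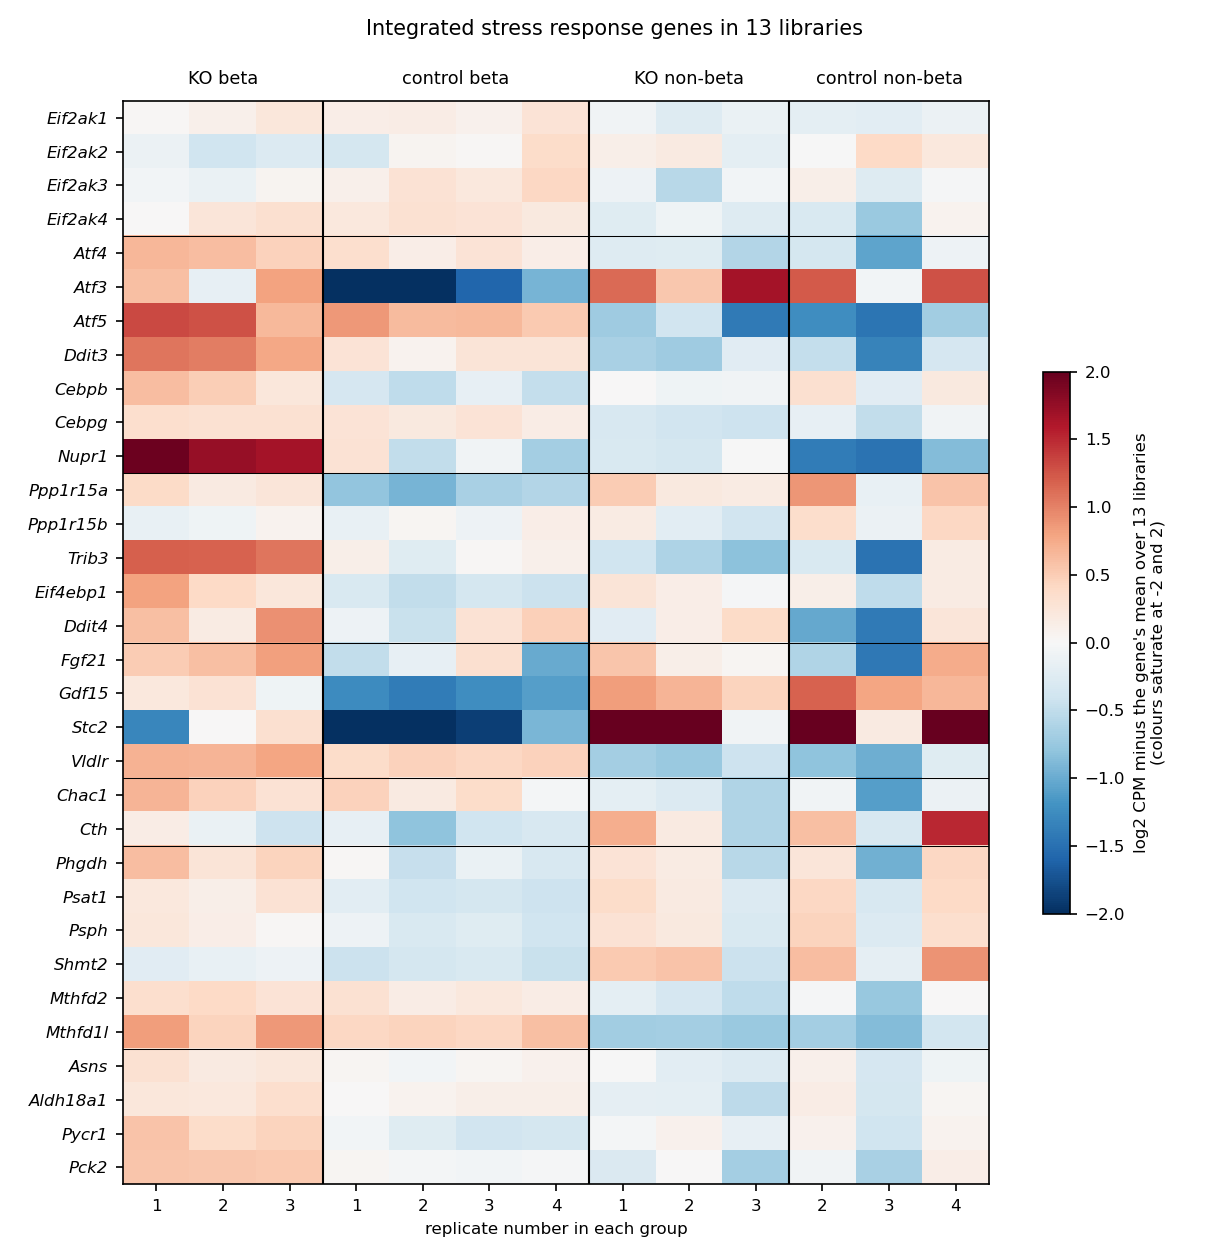
log2 CPM of the 32 genes in each of the 13 libraries minus the gene's own mean over all libraries, with libraries as columns by group and replicate number (KO standing for the label) and genes as rows by role; colours saturate at -2 and 2. Control non-beta replicate 3 is darker blue than its neighbours for most genes (29 of 31 at the lowest of its group), and the 3 KO beta columns are red for most factors and feedback genes.

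Whether the knockout label went with a different change in beta cells than in non-beta cells was tested directly with all 13 libraries. The difference of the log2 fold changes, beta minus non-beta, was called higher for 2 of the 32 genes and lower for 0, where 0.612% of 19942 genes were called higher and 0.928% in either direction. The median difference was 0.51 over the members and 0.03 over all genes. Gdf15 differed by 1.66 (SE 0.21, edgeR adjusted p = 0.00454): it had 39.2, 45.8 and 51.4 CPM in KO-labelled non-beta libraries, against 45.5, 49.6 and 64.8 CPM in control non-beta libraries. The non-beta groups of Gdf15 overlapped, while its beta groups did not. Cebpb differed by 1.03 (SE 0.21, adjusted p = 0.0348), with 169.8, 172.0 and 181.8 CPM in KO-labelled non-beta libraries, against 155.4, 207.1 and 227.2 CPM in control non-beta libraries. Ppp1r15a, at 1.24 (SE 0.27), missed the threshold with an adjusted p of 0.0552, and it had 218.7, 224.9 and 279.3 CPM in KO-labelled non-beta libraries, against 176.0, 290.6 and 360.4 CPM in control non-beta libraries. The largest difference, 1.91 for Atf3 (SE 0.55), was not called (adjusted p = 0.154), nor was that of Trib3, 1.39 (SE 0.39, adjusted p = 0.136), nor that of Nupr1, 1.02 (SE 0.32, adjusted p = 0.18), whose level was also higher in KO-labelled non-beta libraries.

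Of these calls, that of Gdf15 was made in all 20 alternative fits and that of Cebpb was lost in 11. Leaving out control non-beta replicate 3 raised the count to 8, with Atf3, Ddit3, Ppp1r15a, Trib3, Eif4ebp1 and Pycr1 added. Leaving out either of the other control non-beta libraries lowered it to 1. Over all genes the main fit called 185 of 19942 in either direction. The calls were 289 of 20413 genes without replicate 3, 134 of 20392 without replicate 4 and 62 of 20359 without replicate 2. For the remaining genes a rise in beta cells without a call in non-beta cells does not show that the fractions differ.

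About as often as genes in general, these genes differed in level between the fractions. In control mice, 10 members were higher and 9 lower in beta than in non-beta cells, where 24.8% of 19014 genes were higher and 28.6% lower (53.5% in either direction), so the members' share is near that of all genes. In 11 members every control beta library lay above every control non-beta library, where 27.7% of all genes did so, and in 5 below, where 28.7% did. Higher in beta cells were the kinases Eif2ak1, Eif2ak3 and Eif2ak4, the factors Atf4, Atf5, Ddit3, Cebpg and Nupr1, the receptor Vldlr and the enzyme Mthfd1l. Atf5 stood out, with 28.6, 30.7, 31.1 and 36.3 CPM in control beta libraries, against 7.21, 8.39 and 12.3 CPM in control non-beta libraries, a log2 fold change of 1.75 (SE 0.19, edgeR adjusted p = 4.22e-05). Lower in beta cells were Atf3, Cebpb, Ppp1r15a, Gdf15, Stc2, Cth, Psat1, Psph and Shmt2. Also lower were 17 of 19 immediate early genes tested (median log2 fold change -1.48), a list outside the members that dispersal of tissue can induce. Under the KO label 14 of those 19 were lower in beta cells, where 23.5% of all genes were. The part of tissue handling in the members' differences between fractions was not tested. Gdf15 was lower by a log2 fold change of -2.16 (SE 0.13, adjusted p = 8.58e-07), Atf3 by -2.60 (SE 0.38, adjusted p = 0.000326), Ppp1r15a by -1.25 (SE 0.20, adjusted p = 0.000574) and Stc2 by -3.49 (SE 0.56, adjusted p = 0.000554). Of these calls, 8 of the 10 higher and 5 of the 9 lower were lost in no alternative fit. Eif2ak3 passed narrowly and with overlap (edgeR adjusted p = 0.049), and its call was lost in 12 of 15 alternative fits. The calls of Eif2ak4 and Psph were lost in 6 of 15 and that of Cth in 6 of 14. Calls also depended on the low non-beta library: without control non-beta replicate 3, 8 members were higher and 13 lower. That fit called 10109 of 19444 genes in either direction.

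Under the KO label, 15 members were higher and 2 lower in KO-labelled beta than in KO-labelled non-beta cells, where 19.1% of 18775 genes were higher and 23.5% lower (42.6% in either direction). Trib3 had 413.4, 444.3 and 452.5 CPM in KO-labelled beta libraries, against 111.8, 128.9 and 149.2 CPM in KO-labelled non-beta libraries, a log2 fold change of 1.73 (SE 0.14). Ppp1r15a had 221.0, 230.8 and 254.4 CPM in KO-labelled beta libraries, against 218.7, 224.9 and 279.3 CPM in KO-labelled non-beta libraries, with overlap (log2 fold change -0.05, edgeR adjusted p = 0.793). Gdf15 remained lower in KO-labelled beta cells, by -0.54 (SE 0.15, adjusted p = 0.0177), as did Stc2, by -1.97 (SE 0.62, adjusted p = 0.0332). The libraries of Stc2 overlapped. Its call was lost in 5 of 13 alternative fits, and that of Gdf15 in 2 of 14. All 4 enzymes of the last group, Asns, Aldh18a1, Pycr1 and Pck2, were higher in KO-labelled beta cells, by 0.38 to 0.81. The call of Asns was lost in 6 of 14 alternative fits and that of Pycr1 in 1 of 14. None of the 4 enzymes was called between the control fractions. Their difference between labels, 0.31 to 0.73, was not called either. The 2 fraction comparisons do not share libraries, and the difference between them is the same contrast as the test of the label by fraction above, in which 2 members passed.

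**Figure D5:**
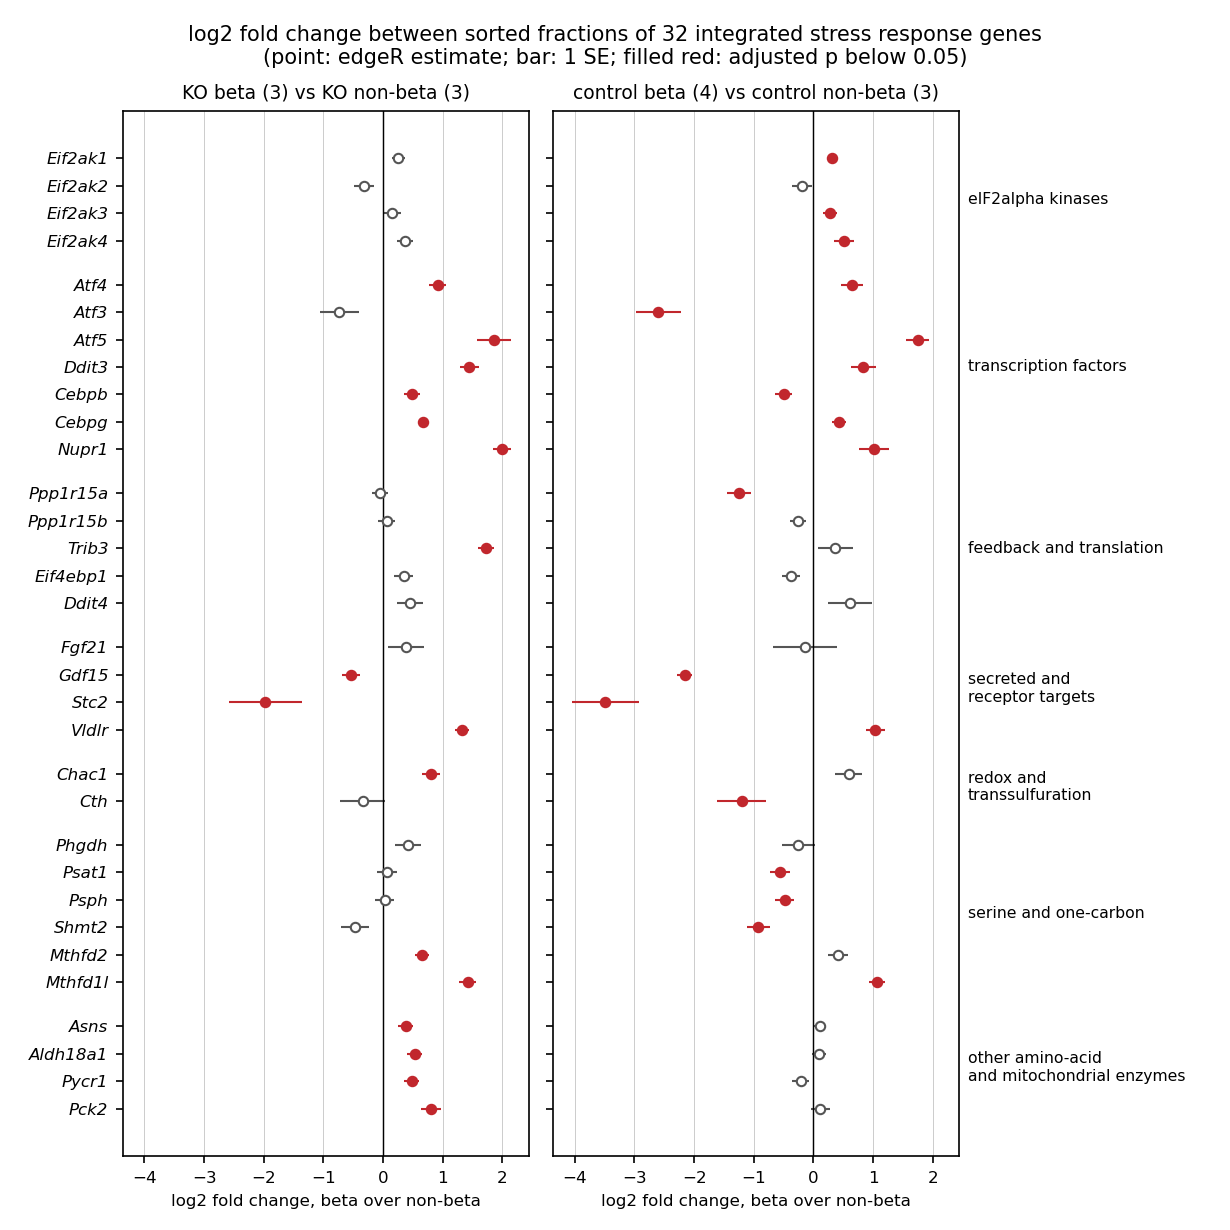
log2 fold change of beta over non-beta libraries for the 32 genes by role, in KO-labelled mice (left, 3 against 3 libraries) and control mice (right, 4 against 3); points are edgeR estimates, bars 1 SE, and filled red points have an adjusted p below 0.05. Stc2 lies farthest left in both panels, at -1.97 and -3.49, and Trib3 is filled in the left panel only, at 1.73.

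Per kilobase of exon, the most abundant members were Nupr1 (400.7 CPM per kb), Ddit3 (279.3) and Trib3 (205.5) in KO-labelled beta cells, against Ddit3 (167.1), Asns (147.5) and Atf4 (142.5) in control beta cells. In non-beta cells the first places were held by Asns (129.0 CPM per kb) and Cebpb (116.1) under the KO label and by Asns (134.9) and Cebpb (130.7) in controls. Stc2 was the least abundant member in beta cells, at 0.138 CPM per kb under the KO label and 0.0453 in controls.

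Other genes of the pathway, from lists chosen with earlier results of these data known, moved unevenly in KO-labelled beta cells. The counts of these lists stand beside 10.1% of all genes called higher there and 9.97% called lower. The lists share some genes, among them Slc7a11, Dnajc3 and Oma1, so their counts are not separate. Of the eIF2 and eIF2B subunits and their partners, 1 of 14 rose (Eif2b3, a subunit of the exchange factor, 54.3 ± 2.88 CPM in KO-labelled and 44.5 ± 3.49 CPM in control beta libraries; SD, n = 3 and 4) and 2 fell, Nck1 and the phosphatase subunit Ppp1cb. These shares, 7.14% and 14.3%, are not far from those of all genes. Of 9 genes that activate or restrain the kinases 0 rose and 3 fell: Dnajc3, which encodes an inhibitor of PERK and PKR, the pseudokinase gene Trib1, and Sel1l, which acts in degradation of misfolded protein. Dnajc3 averaged 447.9 ± 6.43 CPM in KO-labelled beta libraries and 617.7 ± 29.7 CPM in control beta libraries (log2 fold change -0.42, SE 0.07, edgeR adjusted p = 0.00205).

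Amino acid transporters under ATF4 rose in 8 of 11 tested and fell in 0, with a median log2 fold change of 0.62, while Slc43a1 did not pass the filter on low counts. Slc7a11, which imports cystine, averaged 10.8 ± 1.71 CPM in KO-labelled beta libraries (SD, n = 3) and 1.80 ± 0.419 CPM in control beta libraries (SD, n = 4), a log2 fold change of 2.63 (SE 0.19, edgeR adjusted p = 1.56e-05). Slc6a9, a glycine transporter, and Slc3a2, the shared heavy chain of several transporters, rose by 0.93 (SE 0.10) and 0.72 (SE 0.09). Of 20 cytosolic aminoacyl-tRNA synthetases 5 rose and 0 fell, the changes being small: Eprs, Sars and Tars rose by 0.41, 0.37 and 0.30 (adjusted p = 0.00146, 0.00369 and 0.00747). In a further list of reported ATF4 targets, which holds Slc7a11 again, 12 of 25 tested rose and 0 fell. Adm2, a peptide hormone, averaged 13.7 ± 2.69 CPM in KO-labelled beta libraries (SD, n = 3) and 3.58 ± 0.366 CPM in control beta libraries (SD, n = 4). Gpt2, the mitochondrial alanine aminotransferase, averaged 75.8 ± 0.803 CPM in KO-labelled beta libraries (SD, n = 3) and 39.5 ± 4.19 CPM in control beta libraries (SD, n = 4).

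The remaining folate, serine and proline genes went both ways, with 4 higher and 3 lower of 25. These shares, 16% and 12%, are not far from those of all genes, 10.1% and 9.97%. Cbs, the enzyme that feeds homocysteine to cysteine synthesis, fell to 23.2 ± 2.97 CPM in KO-labelled beta libraries, against 51.3 ± 3.75 CPM in control beta libraries (log2 fold change -1.10, SE 0.10, edgeR adjusted p = 4.02e-05; SD, n = 3 and 4). Mat2a, which makes S-adenosylmethionine, and the mitochondrial folate enzyme Aldh1l2 rose by 0.72 (SE 0.08) and 0.61 (SE 0.07).

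The IRE1 and ATF6 arms of the unfolded protein response, which answer to the endoplasmic reticulum alongside PERK, held 12 of 24 genes that fell and 1, Derl1, that rose, with a median log2 fold change of -0.30. Pdia6, a protein disulfide isomerase, averaged 1148.1 ± 9.49 CPM in KO-labelled beta libraries (SD, n = 3) and 1900.4 ± 76.8 CPM in control beta libraries (SD, n = 4). Sdf2l1, a chaperone partner, averaged 396.4 ± 34.5 CPM in KO-labelled beta libraries (SD, n = 3) and 752.7 ± 72.2 CPM in control beta libraries (SD, n = 4). Of 12 mitochondrial chaperones and proteases 7 rose and 0 fell, led by Hspa9 (log2 fold change 0.58, SE 0.06, adjusted p = 0.000152) and the protease Lonp1 (0.67, SE 0.08, adjusted p = 0.000312). NRF2 targets, several of which ATF4 also reaches and 1 of which is Txnrd1 itself, rose in 16 of 18 and fell in 1, G6pdx, with a median of 1.16. Srxn1, the sulfiredoxin, rose by 1.64 (SE 0.12, adjusted p = 1.55e-05). Immediate early genes, which dispersal of tissue is known to induce, rose in 2 of 18 tested, Myc and Klf4, and fell in 0. The share that rose, 11.1%, is near that of all genes, 10.1%. Between the fractions most genes of this list were lower in beta cells, as given above. In non-beta cells edgeR called 0 of 18908 genes, and so 0 of these lists, which is no result about the lists.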

How the data were processed

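Total RNA of 13 sorted islet-cell libraries was amplified with a low-input SMARTseq workflow and sequenced in pairs of 100-base reads, per the labels' protocols. The submitters' processing notes name FastQC, STAR, edgeR and the build GRCm38.p6, without roles. The authors deposited gene counts, gene lengths and RPKM, and tables of 4 comparisons with log2 fold changes and p-values (FDR); RPKM values were not used. Counts were read as deposited; levels are CPM on TMM library sizes. Each comparison was fitted on its own groups with edgeR 4.0.16 in R 4.3.3 (filterByExpr, TMM, quasi-likelihood test, Benjamini-Hochberg over all genes tested, threshold 0.05), and the difference of label effects on all 13 libraries. The fit was tested on simulated data. Motifs were searched in RefSeq promoter windows, and overlapping exons were read from the GENCODE annotation of that build. All 32 members are accounted for; the kinases, Atf4, Ddit3, Ppp1r15a, Ppp1r15b and called members are given per library, and of each other list at most 3 genes with the smallest adjusted p. The members, roles and lists were chosen with earlier results of these data known. Alternatives were RLE and upper-quartile scaling, DESeq2 1.42.0, other filters, all libraries in 1 fit, each library left out and a replicate block. Replicate libraries correlated at Spearman 0.9510 to 0.9634, and none was identical to another.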

Additional observations from a re-analysis of the deposited data

Results flagged for a closer look

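Ddit3 had 259.5 CPM in control beta replicate 2, apart from the other 3 control beta libraries at 294.5, 294.6 and 296.6 CPM. The gap exceeded Dixon's 95% critical value for 4 libraries. It was the 1 gene of 32 so marked in control beta cells, and chance marks about 1 in 20.

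The change under the KO label differed between beta and non-beta cells for Gdf15, by 1.66 on the log2 scale, and for Cebpb, by 1.03, in the test of the difference over all 13 libraries. Gdf15 rose in KO-labelled beta cells by 1.44 (SE 0.11), and its value in non-beta cells was -0.21 (SE 0.17). Cebpb rose in KO-labelled beta cells by 0.87 (SE 0.12), and its value in non-beta cells was -0.15 (SE 0.15).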

How the results depend on the processing

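No member's called change turned its direction under any alternative. In KO-labelled against control beta cells, 10 members were higher and 0 lower with all 13 libraries in the fit, which called 1673 of 19942 genes. Leaving out 1 library gave 16 to 20 members higher and 0 to 1 lower, with 1991 to 4117 genes called in either direction. In non-beta cells DESeq2 called 1 member higher, and leaving out 1 library gave 0. Between control fractions, leaving out 1 library gave 8 to 13 higher and 5 to 13 lower, with 8716 to 10880 genes called. Between KO-labelled fractions leaving out 1 library gave 13 to 15 members higher and 0 to 4 lower, with 6277 to 8752 genes called. The stricter filter on low counts left 29 members tested, without Stc2, and gave 1 lower, with 7096 genes called. Leaving out both KO replicate 3 libraries, chosen after seeing the data, gave 16 higher and 3 lower, with 8824 genes called. For the difference of label effects, DESeq2 called 6 members higher, where 557 of 19917 genes were called in either direction. The fit without a filter called 4, where 235 of 34422 genes were called. Leaving out 1 library gave 1 to 8 members higher and 0 lower, with 62 to 289 genes called. Without both KO replicate 3 libraries 2 members were higher, where 154 of 20341 genes were called. Apart from the loss of Stc2 to the stricter filter, the causes were not tested.

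Replicate numbers are shared between groups, and libraries of the same number deviated together weakly. Their correlations were 0.07 to 0.19, and the highest correlations with another number were -0.16 to 0.10. The labels do not say what the numbers stand for, so the main fits did not use them as pairing. Whether they mark a shared mouse or batch was not tested. With the replicate block, 22 members were higher and 0 lower in KO-labelled beta cells, 2 were higher in non-beta cells (Nupr1 at a log2 fold change of 1.28, 1.03 without the block, and Ddit4 at 1.49, 0.68 without it; edgeR adjusted p = 0.0229 for both), and 1 passed for the difference of label effects. Between fractions, the block gave 11 members higher and 9 lower in controls, and 15 higher and 2 lower under the KO label. Over all genes the block called 3544 of 17525 in beta cells and 12 of 18908 in non-beta cells. It called 50 of 19942 for the difference of label effects. Between fractions it called 9494 of 19014 in controls and 7877 of 18775 under the KO label. In beta cells, replicate 2 did not correlate best with its own number (0.09, against 0.10 for another number). At this depth members under 3 CPM (Fgf21, Stc2 and Cth) are the least precisely measured.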
